A study of Mus musculus with 2 samples.

Results

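The genes described here encode enzymes that make or break N-acylethanolamines and 2-arachidonoylglycerol, together with the lysophospholipase D gene Gdpd3, and they were read in small intestinal epithelial cells from mice lacking the microRNA miR-215 and from wild-type mice. The 10 genes were chosen by symbol from the 23284 genes listed for each library, and all 10 were listed. The low value of Gdpd3 in the knockout and the ratios of the other members were already known at that choice. The knockout library carried the genotype miR-215-/- and the wild-type library miR-215+/+, with 1 library for each genotype. The sources used here do not give strain, sex, age, the number of animals behind a library or any treatment. With no replicate there is no test, no p-value and no measure of the spread between animals, so "higher" and "lower" compare these libraries and not the genotypes.

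N-acylethanolamines are fatty acid amides released from N-acylated phosphatidylethanolamine in membranes. A single phospholipase D, NAPE-PLD, can release them directly. A second route strips the acyl chains first, through ABHD4, and then cuts the remaining headgroup with GDE1 or, from the lyso form, with the lysophospholipases D GDPD1 and GDPD3, which also make lysophosphatidic acid from other lysophospholipids. FAAH and NAAA hydrolyse the products. In the small intestine, the N-acylethanolamine of oleic acid rises after fat intake and acts on PPAR-alpha to reduce feeding. 2-Arachidonoylglycerol is made from diacylglycerol by the lipases DAGL-alpha and DAGL-beta and is broken down mainly by monoacylglycerol lipase, the product of Mgll.

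Because the deleted gene makes a microRNA, its mature sequences and the matches to part of them are shown first. MicroRNAs bind messages mainly through their seed, bases 2 to 8, which is in capitals in the mature sequences below, from RefSeq on GRCm38.p6. Both arms of the miR-215 hairpin come from chromosome 1. miR-192-5p, from chromosome 19, has the same seed as miR-215-5p.
mmu-miR-215-5p: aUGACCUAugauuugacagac
mmu-miR-192-5p: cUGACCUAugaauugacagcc
mmu-miR-215-3p: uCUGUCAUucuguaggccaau

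The longest annotated 3' UTR of each enzyme gene was searched for the DNA letters that pair with these seeds, TAGGTCA for miR-215-5p and ATGACAG for miR-215-3p, on the transcript strand. Of the 10 genes, 3 held a match, Faah, Mgll and Daglb, with 5 matches in all. The windows of 30 bases around them are shown 5' to 3' from the GENCODE M21 transcripts on GRCm38, with the match in capitals. Each window matches the seed of the arm named beside it. Shorter matches, coding sequence and other annotated 3' UTRs were not searched.
Faah, miR-215-5p, chr4:115997036-115997065, minus strand: tatttacactgTAGGTCAcacaaatgctat
Mgll, miR-215-5p, chr6:88827251-88827280, plus strand: gccacctactaTAGGTCAtaaggtcactgt
Mgll, miR-215-3p, chr6:88827724-88827753, plus strand: catgtccctgcATGACAGcaccggggctcc
Daglb, miR-215-3p, chr5:143505705-143505734, plus strand: taggcagagccATGACAGgaagcgtctgtc
Daglb, miR-215-3p, chr5:143505758-143505787, plus strand: gcattagtcacATGACAGtgttggtactgt

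None of the 5 matches was followed by A, the base that extends a seed match to 8 letters. The annotated 3' UTR of Gdpd3 is 18 nt long and held no match, and those of Gdpd1, Abhd4, Gde1, Napepld, Naaa and Dagla, of 458 to 2399 nt, held none either. Among 10979 genes that were compared and had an annotated 3' UTR, 6.84% held TAGGTCA and 11.6% held ATGACAG. Of the 10 enzyme genes, 2 held the first and 2 the second. The share of all genes holding either was not counted. The 3' UTRs of Faah, Daglb and Mgll were 1818, 2543 and 2584 nt long, above the median of 1096 nt over those 10979 genes, and the part of length was not tested. A match is a description of sequence, and pairing was not measured.

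Levels are the FPKM values the authors deposited, which scale the fragments of a gene by its transcript length and by sequencing depth. The knockout library had 11215 genes at 1 FPKM or more and the wild-type library 11077. At 1 FPKM, a transcript of 2 kb rested on about 18.1 fragments in the knockout library and 17.5 in the wild-type library, estimated from the steps between low values. Intervals below are exact 95% intervals for counting error, made from such estimated fragment numbers. They leave out variation between animals or preparations. A gene was compared when either library reached 1 FPKM, which left 11504 genes, on the log2 scale after adding 1 FPKM to each value. Mir215 itself was listed at 0 in the knockout library and at 137 FPKM in the wild-type library, but the hairpin is shorter than the length for which fragment numbers could be estimated, so the deletion could not be checked in these libraries of polyadenylated RNA.

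In the wild-type library the set was led by the genes of the deacylation route, the lysophospholipases D and Faah, with Gde1 at the top and Gdpd3 at place 5. Napepld, Mgll and Dagla were under 2 FPKM. In the knockout library the highest genes were again Gde1, Gdpd1, Faah and Abhd4, while Gdpd3 was at place 7. The counting intervals of Faah and Gdpd1 overlapped in the wild-type library, as did those of Napepld and Mgll. In the knockout library those of Gdpd3 and Napepld, of Napepld and Mgll, and of Mgll and Dagla overlapped. All other neighbours in the order were apart by counting error.

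**Figure D1:**
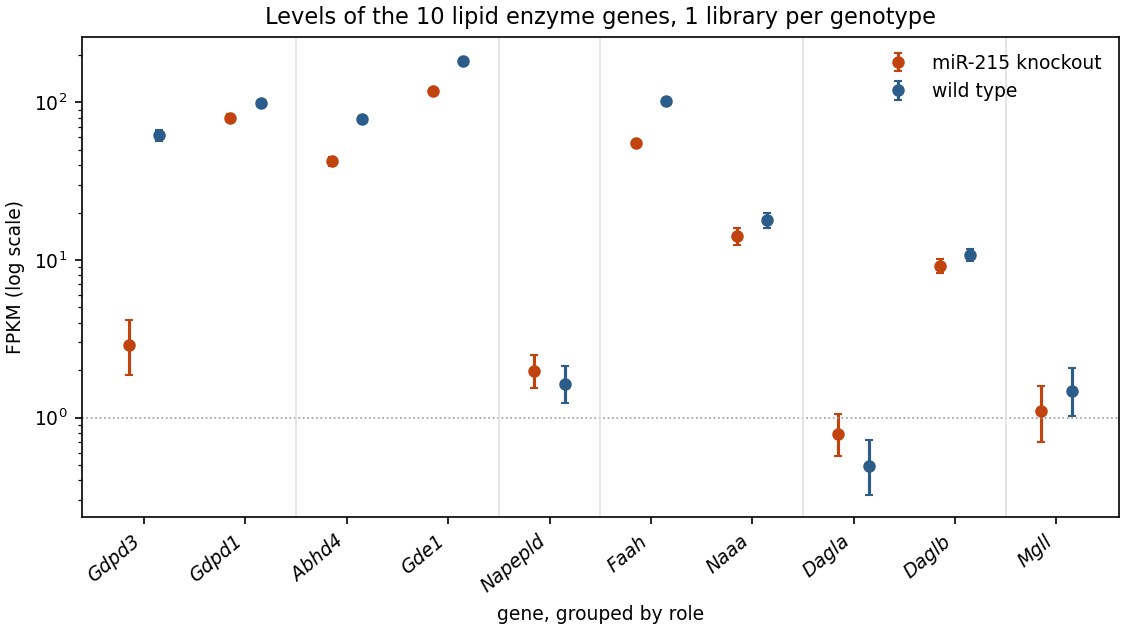
Deposited FPKM (log axis) of the 10 genes in the knockout library (orange, left of each pair) and the wild-type library (blue, right), with exact 95% counting intervals; grey lines separate roles and the dotted line is 1 FPKM. Gdpd3 is at 2.87 FPKM in the knockout library and 62.0 FPKM in the wild-type library, and no other gene is as far apart.

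Gdpd3 (ENSMUSG00000030703, chromosome 7, 126766334 to 126775649 of mm10, plus strand) had 2.87 FPKM in the knockout library (interval 1.87 to 4.14) and 62.0 FPKM in the wild-type library (57.0 to 67.3). These values rested on about 27 and 568 fragments. The FPKM fold was 0.0463 (0.0299 to 0.0674), 21.6-fold lower in the knockout library, and the log2 ratio of -4.02 was the 16th lowest of the 11504 genes. The gene was chosen for this difference, which is therefore a description. A noncoding gene, Gm9967, overlaps Gdpd3 on the opposite strand and was not listed in the tables. The library kit keeps the strand, but the sources used here do not say whether the authors' counting used it, so fragments of the antisense gene could not be told apart. In bulk samples such as these, fewer cells of a type and less RNA per cell cannot be told apart, for Gdpd3 or for the genes below.

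Its paralog Gdpd1 (chromosome 11, 87033867 to 87074062), which encodes the other lysophospholipase D of this kind, had 80.0 FPKM in the knockout library and 99.5 FPKM in the wild-type library. The fold was 0.804 (0.753 to 0.857), or a log2 ratio of -0.31. Gdpd1 was thus much closer between the libraries than Gdpd3. Gdpd3 made up 3.47% of the summed FPKM of both genes in the knockout library and 38.4% in the wild-type library, and that sum was 82.9 FPKM in the knockout library and 161.5 FPKM in the wild-type library.

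The deacylation route was lower at both steps. Abhd4 (chromosome 14, 54254188 to 54270637), whose product removes acyl chains from N-acylated phosphatidylethanolamine, had 42.4 FPKM in the knockout library and 78.2 FPKM in the wild-type library, a fold of 0.542 (0.50 to 0.587). Gde1 (chromosome 7, 118688545 to 118705778), whose membrane phosphodiesterase releases the N-acylethanolamine from the deacylated headgroup, had 118 FPKM in the knockout library and 182 FPKM in the wild-type library, a fold of 0.647 (0.607 to 0.689). Both intervals lay below 1. On the log2 scale with the added 1 the ratios were -0.87 and -0.63, and 2.90% of all genes compared had a lower ratio than Abhd4.

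Napepld (chromosome 5, 21662901 to 21701396), the direct phospholipase D, was the only compared gene of the set with a ratio above 0. It had 1.97 FPKM in the knockout library and 1.63 FPKM in the wild-type library, about 70 and 56 fragments. The fold was 1.21 with an interval of 0.836 to 1.75, so a difference was not detectable at this depth. As levels per length, Gde1 was 59.9 times and Abhd4 21.6 times Napepld in the knockout library, against 112 times and 48.0 times in the wild-type library.

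Both hydrolases of N-acylethanolamines were lower in the knockout library, Faah by more than Naaa. Faah (chromosome 4, 115967145 to 116017926), the membrane amidase that ends N-acylethanolamine signals, had 55.2 FPKM in the knockout library and 102 FPKM in the wild-type library, a fold of 0.539 (0.510 to 0.570) and a log2 ratio of -0.88. It rested on about 2018 and 3609 fragments, the most of the set. Naaa (chromosome 5, 92257659 to 92278170), a lysosomal acid amidase also found in macrophages, had 14.2 FPKM in the knockout library and 17.9 FPKM in the wild-type library, a fold of 0.791 (0.669 to 0.935). The upper bound for Naaa passed 1 when the libraries were set to equal sums (1.03) or with its shortest transcript (1.12). Faah was 3.89 times Naaa in the knockout library and 5.71 times Naaa in the wild-type library.

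Of the genes of 2-arachidonoylglycerol turnover, 1 had an interval below 1 and the other two were too low to resolve. Daglb (chromosome 5, 143464584 to 143505942), one of the diacylglycerol lipases, had 9.18 FPKM in the knockout library and 10.8 FPKM in the wild-type library, a fold of 0.851 (0.743 to 0.973), with an upper bound of 1.07 at equal sums. Dagla (chromosome 19, 10245265 to 10304877), the lipase best known from neurons, stayed under 1 FPKM, at 0.783 in the knockout library and 0.491 in the wild-type library, and was left out of the counts below. Its fold of 1.59 (0.958 to 2.70) rested on about 43 and 26 fragments, and at equal sums the interval was 1.05 to 2.97. Mgll (chromosome 6, 88724412 to 88828360), the main lipase of 2-arachidonoylglycerol in brain, had 1.10 FPKM in the knockout library and 1.48 FPKM in the wild-type library, a fold of 0.742 (0.417 to 1.27), which was not detectable as a difference at this depth.

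**Figure D2:**
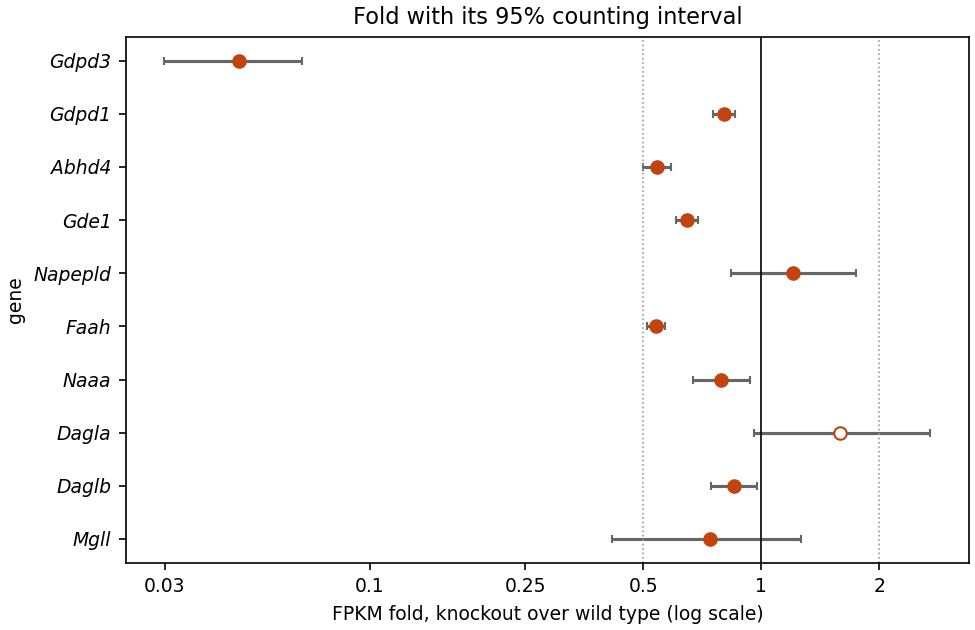
FPKM fold of each gene, knockout over wild type (log axis), with its exact 95% counting interval; the solid line is no difference, dotted lines are 2-fold, and the open point (Dagla) was under 1 FPKM in both libraries. Gdpd3 lies at 0.0463, Faah and Abhd4 at 0.539 and 0.542, and the intervals of Napepld, Dagla and Mgll hold 1.

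Of the 9 genes compared, 8 had a log2 ratio below 0 and 1 above, where 56.0% of all genes compared were below 0. Gdpd3 alone was at least 2-fold lower and none was at least 2-fold higher, against 2.04% of all genes lower and 1.34% higher. At 1.5-fold, Gdpd3, Faah, Abhd4 and Gde1 were lower and none was higher, 4 of 9, against 7.26% of all genes lower and 4.83% higher. Without Gdpd3 the median log2 ratio of the other 8 was -0.31, and that of all genes compared was -0.05. The members were chosen with these ratios known, and their counts describe them only. The balance among all genes turned with the scaling: 154 genes were at least 2-fold higher and 235 lower as deposited, and 209 higher and 185 lower with the libraries set to equal sums. At equal sums Gde1 was no longer 1.5-fold lower, which left 3 of 9, against 4.9% of all genes lower and 7.8% higher. Counting intervals lay below 1 for 7 of the 9 genes and above 1 for none, against 30.4% and 19.6% of 11369 genes compared that had an annotated length. At equal sums they lay below 1 for 5 of the 9, against 19.4% of those genes, and above 1 for none of the 9, against 31.2%.

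**Figure D3:**
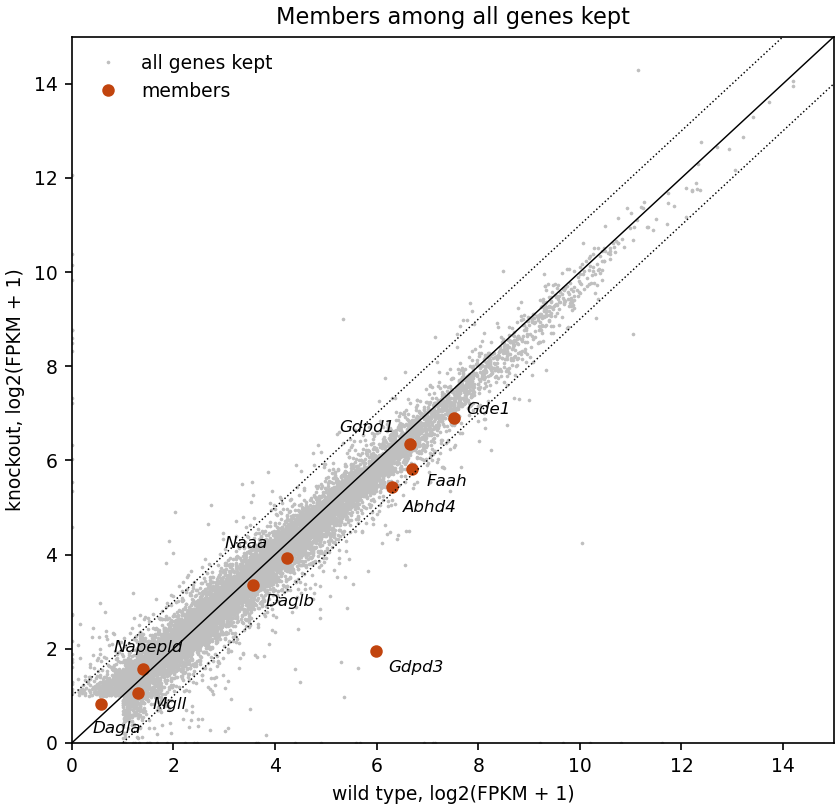
The 10 genes (orange) among the 11504 genes compared (grey), as log2(FPKM + 1) in the knockout library (vertical) and the wild-type library (horizontal); the solid line is equality and dotted lines are 2-fold. Gdpd3 lies far below the diagonal, at a log2 ratio of -4.02, and Faah and Abhd4 near the lower 2-fold line.

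Of the 3 genes with a seed match shown above, none had a fold above 1. Of the genes without a match, Gdpd3, Gdpd1, Abhd4, Gde1 and Naaa also had folds below 1, and Napepld and Dagla had folds above 1. Faah and Mgll, with TAGGTCA, had folds of 0.539 and 0.742, the second with an interval that holds 1, and Daglb, with 2 copies of ATGACAG, had 0.851. Over all genes with a 3' UTR, the median log2 ratio was -0.004 with TAGGTCA and -0.055 without, and -0.024 with ATGACAG and -0.055 without.

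Adjacent genes were read to see how far the low value of Gdpd3 extended along chromosome 7. Mapk3, the ERK1 kinase gene, ends 514 nt upstream of Gdpd3 on the same strand and had 234 FPKM in the knockout library and 308 FPKM in the wild-type library, a fold of 0.758 (0.726 to 0.792). Ypel3 begins 1305 nt downstream, also on that strand, and had 24.6 FPKM in the knockout library and 48.9 FPKM in the wild-type library, a fold of 0.503 (0.422 to 0.599). Within 500 kb of the start of Gdpd3, 42 other genes were compared, with a median log2 ratio of -0.05 and a range of -0.96, for Ypel3, to 0.87. On this scale none of the 42 was 2-fold apart in either direction. At least 1.5-fold, 1 was lower, Ypel3, and 3 were higher, Lat, Sult1a1 and Doc2a, named here after their values were seen. Without the added 1, the folds of Lat, Sult1a1 and Doc2a were 2.06 (1.37 to 3.18), 2.89 (0.9995 to 10.2) and 2.70 (1.27 to 6.23). Sult1a1 rested on about 15 fragments in the knockout library and 5 in the wild-type library, and Doc2a on about 28 and 10. Gdpd3 and Gde1 lie on the same chromosome about 8 Mb apart; over chromosome 7, 20 of 872 genes compared, 2.29%, were at least 2-fold lower.

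**Figure D4:**
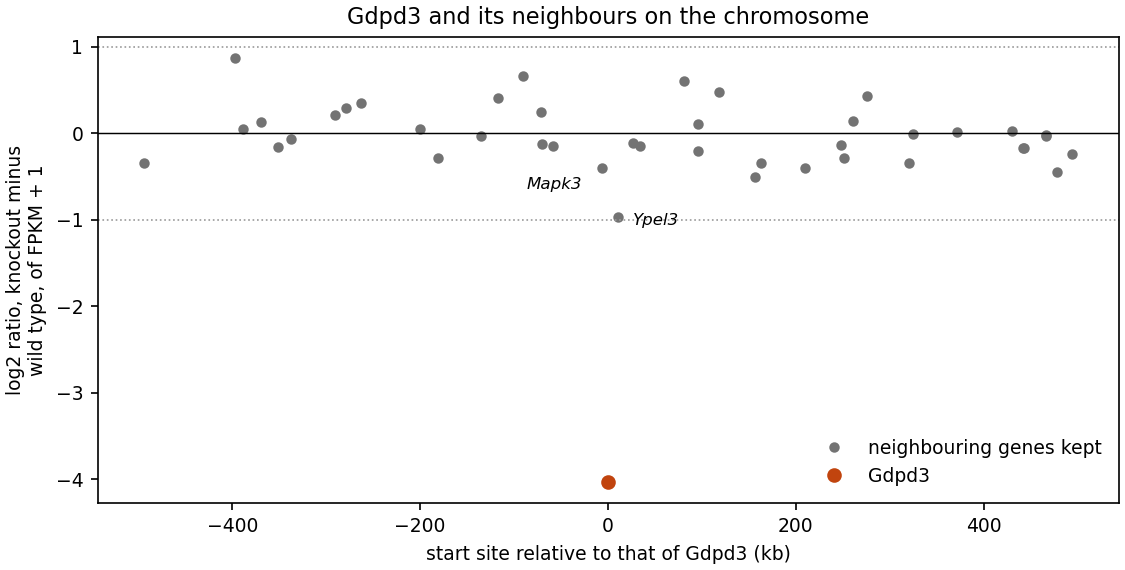
Log2 ratio of FPKM + 1, knockout minus wild type, of Gdpd3 (orange) and of the 42 genes compared within 500 kb (grey), by distance of the start sites in kb; dotted lines are 2-fold. Gdpd3 is at -4.02 and the lowest neighbour, Ypel3, at -0.96.

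The genes whose pair of values lay nearest to that of Gdpd3 were found by Euclidean distance over the 2 libraries on the log2(FPKM + 1) scale, leaving out predicted, clone and small RNA names. The nearest was Hddc3, a gene of a metal-dependent phosphohydrolase on chromosome 7, with 2.27 FPKM in the knockout library and 38.4 FPKM in the wild-type library, at a distance of 0.72. The next were the alpha-globin gene Hba-a1 (distance 1.30), the carboxylesterase gene Ces1g (1.41), the glucuronosyltransferase gene Ugt2b5 (1.47) and the beta-globin gene listed as Beta-s (1.49). The globin genes mark red blood cells, whose 4 listed markers summed to 14.9 FPKM in the knockout library and 74.6 FPKM in the wild-type library; the part of red blood cells in the value of Gdpd3 was not tested. Likeness over 2 libraries says only that the levels were close.

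The wider pathway was read from 9 lists of related genes. They named 91 genes, of which 90 were listed and 71 compared. As deposited, 28 had a log2 ratio above 0 and 43 below, with a median of -0.11. Of all genes compared, 56.0% were below 0, with a median of -0.05 that became 0.07 at equal sums. All 23284 genes summed to 683884 FPKM in the knockout library and 750631 FPKM in the wild-type library. The lists here and below were not rescaled, so the part of the library sums in their ratios was not tested. At least 2-fold, 2 of the 71 were higher and 4 lower, where 1.34% of all genes compared were higher and 2.04% lower. The 3 other GDPD family genes compared had ratios below 0 as deposited. Gdpd2, the most abundant, had 52.4 FPKM in the knockout library and 56.5 FPKM in the wild-type library, with a fold interval that holds 1. Gpcpd1, a glycerophosphocholine phosphodiesterase gene, had a fold of 0.887 (0.806 to 0.975), and Gdpd5 had 4.83 FPKM in the knockout library and 9.33 FPKM in the wild-type library, a fold of 0.518 (0.437 to 0.613). Equal sums multiply the knockout values by 1.098. The side of 1 on which the Gdpd2 fold and the upper bound of Gpcpd1 lie depends on this scaling. Gdpd4 was listed at 0 in both libraries.

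In the list of other monoacylglycerol hydrolysis and oxidation, 8 of 9 compared genes were below 0, with a median of -0.60. The 8 encode lipases and esterases, and the 1 above 0 was the cyclooxygenase gene Ptgs1, with 3.31 FPKM in the knockout library and 1.97 FPKM in the wild-type library. Abhd12 had 82.4 FPKM in the knockout library and 126 FPKM in the wild-type library, and Abhd6, which also cleaves 2-arachidonoylglycerol, had 66.8 FPKM in the knockout library and 86.9 FPKM in the wild-type library. The carboxylesterase genes Ces1d and Ces1g were at least 2-fold lower, with folds of 0.209 (0.163 to 0.268) and 0.215 (0.177 to 0.260). The Ces1 genes are close paralogs, and the sources used here do not say how shared fragments were assigned.

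In the list of N-acyltransferases and other routes of N-acylethanolamine synthesis, 3 of 5 compared genes were above 0, with a median of 0.28, while the listed genes summed to 184 FPKM in the knockout library and 236 FPKM in the wild-type library. The most abundant, Abhd12 and Abhd6, were the 2 below 0, with folds of 0.656 (0.614 to 0.701) and 0.768 (0.715 to 0.825). Both are the lipase genes already counted in the list of monoacylglycerol hydrolysis, and they made up most of both sums. The lower sum in the knockout library came from them, since the other 3 compared genes were higher there. Of the 3 above 0, 2 are phosphatase genes of blood cells. Ptpn22, a phosphatase gene of lymphocytes and macrophages, had 9.72 FPKM in the knockout library and 4.27 FPKM in the wild-type library, a fold of 2.28 (1.81 to 2.88). Inpp5d, an inositol phosphatase gene of blood cells, had 4.30 FPKM in the knockout library and 2.30 FPKM in the wild-type library, and the N-acyltransferase gene Plaat3, listed as Pla2g16, had 20.4 FPKM in the knockout library and 16.7 FPKM in the wild-type library. Pla2g4e, Plaat1 and Plaat5, which encode N-acyltransferases, were under 0.05 FPKM or at 0 in both libraries. The list also held Rarres1, which is not known as such an enzyme and was under 1 FPKM.

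Of the receptors, Cnr1, Gpr119 and Trpv1 were at or near 0 in both libraries, and 5 of 9 could be compared, 3 below 0. Ppara, the receptor of oleoylethanolamide, had 18.5 FPKM in the knockout library and 13.8 FPKM in the wild-type library, a fold of 1.34 (1.17 to 1.53). Ppard, the most abundant, had 46.7 FPKM in the knockout library and 52.9 FPKM in the wild-type library, and Pparg had 5.21 FPKM in the knockout library and 10.3 FPKM in the wild-type library, a fold of 0.508 (0.385 to 0.662). The genes listed as intracellular carriers, which also held Scp2, Acbd3 and Dbi, were below 0 in 6 of 7 cases with a median of -0.29. Fabp2, the most abundant, had a fold of 0.847 (0.841 to 0.854). Acbd3 was the 1 above 0, with a fold interval that holds 1.

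Genes around lysophosphatidic acid, a product of lysophospholipase D, went both ways, 4 of 13 above 0 and 9 below. Ppap2a, the older symbol of the lipid phosphatase gene Plpp1, had 95.04 FPKM in the knockout library and 199 FPKM in the wild-type library, a fold of 0.478 (0.446 to 0.513). Agpat2, which acylates lysophosphatidic acid and was the most abundant, had a fold of 0.769 (0.734 to 0.805), and the autotaxin gene Enpp2 was near 0.5 FPKM in both libraries. Phospholipase C genes, which supply diacylglycerol, were above 0 in 8 of 9 cases with a median of 0.24. The most abundant, Plcb3, had 230.0 FPKM in the knockout library and 208 FPKM in the wild-type library, and Plcd3 had 1.64 FPKM in the knockout library and 0.254 FPKM in the wild-type library, a fold of 6.47 (2.91 to 17.0). Among phospholipases A2 and lysophospholipases, 7 of 18 were above 0. Plb1, the brush border phospholipase B gene, led with 210 FPKM in the knockout library and 259 FPKM in the wild-type library, and Pla2g4c had 1.59 FPKM in the knockout library and 5.71 FPKM in the wild-type library, a fold of 0.279 (0.199 to 0.381). Of the genes that re-esterify monoacylglycerol, 2 of 4 were above 0. Dgat1, the most abundant, had a fold of 0.865 (0.843 to 0.888), and Dgat2 went the other way, with a fold of 1.396 (1.337 to 1.459).

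**Figure D5:**
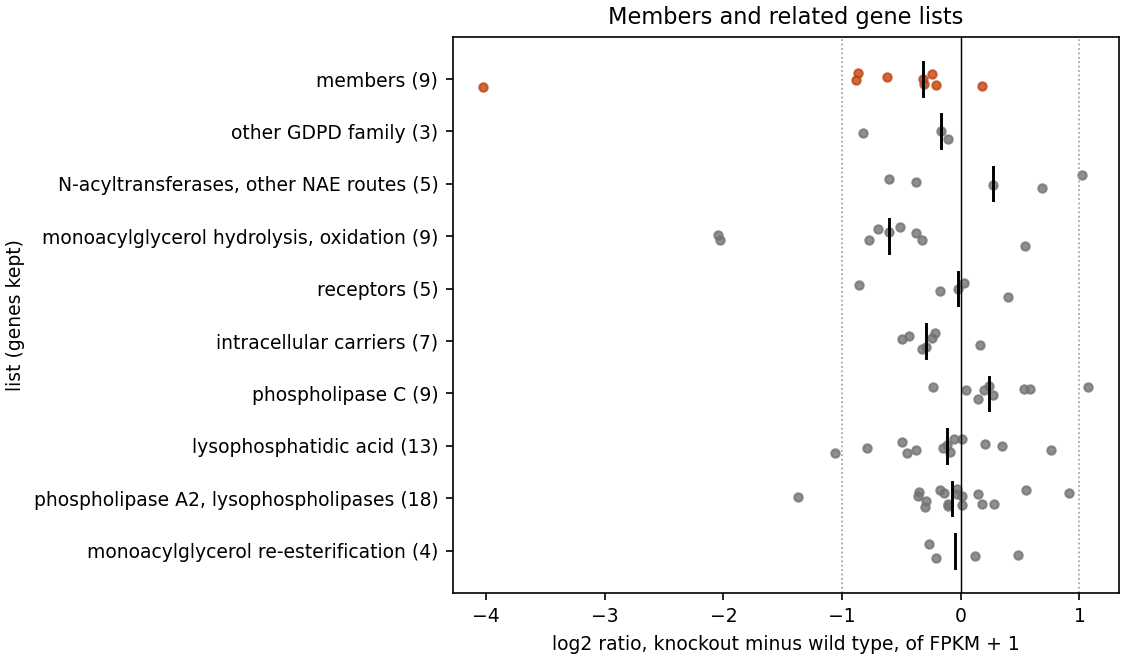
Log2 ratio of FPKM + 1, knockout minus wild type, of the 9 members compared (orange) and of the compared genes of 9 related lists (grey), with the number compared in brackets and the median as a black bar; NAE means N-acylethanolamine and dotted lines are 2-fold. The median is lowest for monoacylglycerol hydrolysis, at -0.60, and highest for N-acyltransferases and other routes, at 0.28.

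The cell make-up of the libraries was read from 12 marker lists, with sums taken over all listed genes. All 23284 genes summed to 683884 FPKM in the knockout library and 750631 FPKM in the wild-type library. The marker sums were not rescaled for this, so a lower sum does not by itself show a smaller share of the library. The 12 enterocyte markers were all present and summed to 63211 FPKM in the knockout library and 70125 FPKM in the wild-type library. Of these markers 9 were below 0, with a median log2 ratio of -0.12 against -0.05 over all genes compared. Goblet cell markers, 2 of 6 above 0, summed to 12852 FPKM in the knockout library and 16005 FPKM in the wild-type library, and Paneth cell markers, 5 of 7 above 0, to 4463 FPKM in the knockout library and 3856 FPKM in the wild-type library. Enteroendocrine markers were above 0 in 2 of 7 cases and tuft cell markers in 3 of 4. Crypt and cycling markers were above 0 in 8 of 9 cases and summed to 350 FPKM in the knockout library and 271 FPKM in the wild-type library. The stem cell gene Lgr5 was the crypt marker below 0, with a fold of 0.527 (0.360 to 0.765).

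Most markers of stromal, endothelial and myeloid cells had ratios above 0. Fibroblast and smooth muscle markers were above 0 in 11 of 11 compared, with sums of 62.3 FPKM in the knockout library and 18.9 FPKM in the wild-type library, and endothelial markers in 2 of 2, with sums of 6.19 FPKM in the knockout library and 1.34 FPKM in the wild-type library. Markers of macrophages, dendritic cells and neutrophils were above 0 in 10 of 11 compared, with S100a8 at 0 in both libraries, and summed to 99.7 FPKM in the knockout library and 77.6 FPKM in the wild-type library. T cell and intraepithelial lymphocyte markers went both ways, 5 of 9 above 0. B and plasma cell markers were above 0 in 2 of 6 cases, and the J chain gene, listed as Igj, had a fold of 2.89 (2.48 to 3.35). The part of these differences in the values of the enzyme genes was not tested.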

How the data were processed

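Per the labels' protocols, the RNeasy Mini kit gave the RNA of small intestinal epithelial cells and the TruSeq stranded mRNA kit the libraries. The deposited values are FPKM made by the authors; no header names the unit, which was inferred from the table layout, the values and Cuffnorm. Cuffnorm 2.2.1, SAMtools 0.1.19, Bowtie2 2.2.3, TopHat2 2.0.13 and the build mm10 are listed, without settings or annotation, per the submitters' processing notes.

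From there, the log2 ratio was taken between knockout FPKM + 1 and wild-type FPKM + 1, which understates the difference of low genes, where either library reached 1 FPKM (pandas 2.3.3, scipy 1.17.1). The worth of 1 fragment was fitted on low values of protein-coding genes with 1 transcript, as a constant over transcript length less 208 nt. After the fit, 70.5% of the values up to 10 fragments in the knockout library and 75.6% in the wild-type library were within 0.1 of a whole number, where an even spread gives 20%. The fit and the intervals were tested only on values simulated from the same model, for genes with 1 transcript of known length. Such values cannot test the lengths assumed for genes with several transcripts. Fragment numbers used the median length of RefSeq-linked transcripts in GENCODE M21, and fold intervals are 95% Clopper-Pearson intervals. Where gene symbols were older, RefSeq synonyms were used. The 3' UTR of each gene was the longest among its protein-coding GENCODE M21 transcripts with an annotated stop codon, RefSeq-linked or not.

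All 10 members are named. From each pathway list the most abundant gene and those at least 2-fold apart are named, with others chosen after their values were seen. For the neighbours of Gdpd3 the nearest compared gene on either side is named. The members, the lists and the tests were chosen with earlier results of these data known. Alternatives were pseudocounts of 0.1 and 5, no filter or a minimum of 5 FPKM, equal summed FPKM, equal upper quartiles, and the shortest or longest transcript; the scaled intervals were added after seeing the data.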

Additional observations from a re-analysis of the deposited data

How the results depend on the processing

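No paired analysis was possible because each genotype had 1 library, and leaving out a library leaves no comparison. The log2 ratio of Gdpd3 was -4.02 as reported and lay between -4.39 and -3.92 under 5 of the 6 alternatives; with a pseudocount of 5 it was -3.09, outside its counting interval, since a larger added value shrinks the ratio of a low gene. Gdpd3 was the only member at least 2-fold apart under all 6. With equal sums or equal upper quartiles 3 members, not 4, were at least 1.5-fold lower, and the median log2 ratio of all genes was 0.07 or 0.05. The median of the other compared members lay between -0.47 and -0.19. Of 47 recomputed log2 ratios of the other 9 genes, 47 kept their sign and 7 left their counting interval, all under the rescalings. With the shortest annotated transcript the intervals of Naaa (0.560 to 1.12) and Daglb (0.525 to 1.32) held 1, because fewer fragments are then assumed. With equal sums those of Naaa and Daglb held 1 and that of Dagla (1.05 to 2.97) no longer did. Depth limited Napepld, Mgll and Dagla, which rested on 25 to 70 estimated fragments in each library.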
